A study of Homo sapiens with 24 samples.

Results

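ABBV-075 at 50 nM was compared with ABBV-744 at 500 nM in HepG2 cells, without interferon gamma (IFNg), in 3 libraries against 3. The libraries were chosen by title, and they are 6 of the 24 libraries and 2 of the 8 groups of the series. HepG2 is a human liver cancer line that makes many of the plasma proteins of hepatocytes. ABBV-075 is a pan-BET inhibitor, which acts on both bromodomains of the BET proteins, whereas ABBV-744 is selective for the second bromodomain, BD2. RNA was depleted of ribosomal RNA and sequenced in libraries that kept the strand. The groups used here, with 3 libraries each, were ABBV-075 at 50 nM, ABBV-744 at 500 nM, ABBV-744 at 50 nM and the solvent DMSO, and with IFNg the ABBV-075 dose of 50 nM and the ABBV-744 dose of 500 nM. The study's methods give 12 hours for ABBV-075 and 24 hours for DMSO, so values against DMSO may also hold a difference in time. No source gives the time of ABBV-744 or the dose and time of IFNg. The treatment time may therefore also differ between ABBV-075 and ABBV-744. Compound and dose differed together between these 2 groups (50 and 500 nM), and ABBV-744 at 50 nM serves as a comparison at the nominal dose of ABBV-075. ABBV-744 named without a dose stands for 500 nM, and higher or lower means ABBV-075 relative to it.

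Reads counted on genes numbered 4082506, 3351138 and 3453110 in the ABBV-075 libraries and 3365524, 3321988 and 3520912 in the ABBV-744 libraries. Across the groups used only for comparison, the totals were 3706857 to 4304103 with DMSO, 3174722 to 3463272 with ABBV-744 at 50 nM, 3409763 to 3996602 with IFNg and ABBV-075, and 2978982 to 3351275 with IFNg and ABBV-744. The labels do not say whether the libraries of a group came from separate cultures, and for ABBV-744 no other source does. Each p-value therefore measures the spread between these libraries, which may be technical. Levels are in CPM, counts scaled to library size after TMM normalization, and SD is over 3 libraries a group. SE is that of the log2 fold change, derived from the edgeR test. That test estimates the spread of each gene partly from all genes tested, so SE is not the spread of the CPM values.

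BET proteins bind acetylated histones through a pair of bromodomains, BD1 and BD2, and help to bring the kinase complex P-TEFb to promoters, where it releases paused RNA polymerase II. HEXIM1 holds P-TEFb in an inactive complex, and its transcript is widely used as a readout of BET inhibition. NR1H4 encodes FXR, the nuclear receptor through which hepatocytes sense bile acids and adjust their synthesis and export.

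Hepatocyte markers were present in all 6 libraries. The 14 markers together held 24870 to 28770 CPM with ABBV-075 and 25280 to 26280 CPM with ABBV-744, and APOB, the structural protein of very low density lipoprotein, was the most abundant. Many markers of other cell types were at or near 0, but not all. All 5 endothelial markers had 3 counts or fewer in every library, and KDR and TEK had 0. Among 8 leukocyte markers PTPRC, CD3E, ITGAM and MS4A1 had 0 counts, among 7 fibroblast and stellate markers COL1A2, COL3A1, DCN and LUM had 0, and among 5 cholangiocyte markers KRT7, CFTR and MUC1 had 0. The most abundant members of those lists were LYZ (lysozyme), ACTA2 (smooth muscle actin) and KRT19 (a keratin), and CD68 of the leukocyte list (34 to 60 counts a library) and SOX9 of the cholangiocyte list (361 to 443 counts) were also present. The summed leukocyte list, led by LYZ, held 1155 to 1235 CPM against 1528 to 1656 CPM. Fibroblast markers, led by ACTA2, summed to 12.8 to 17.4 CPM against 21.9 to 29.1 CPM, and cholangiocyte markers, led by KRT19, to 276 to 336 CPM against 354 to 430 CPM. None of these sums overlapped between the groups, and the two-sided exact permutation test gave p = 0.1 for each, the smallest that 3 against 3 can give. The endothelial sum, led by PECAM1, was 0.241 to 1.20 CPM against 0.575 to 0.641 CPM. LYZ (log2 fold change -0.41), ACTA2 (-0.86) and KRT19 (-0.45) were called lower by edgeR at adjusted p = 0.0201, 0.011 and 0.0356, and the part of other cells in the results was not tested. By edgeR, LYZ was not called without ABBV-075 replicate 2 (-0.38, adjusted p = 0.0957), ABBV-744 replicate 1 (-0.41, adjusted p = 0.0513), ABBV-744 replicate 2 (-0.44, adjusted p = 0.0583) or ABBV-744 replicate 3 (-0.38, adjusted p = 0.0984), ACTA2 not without ABBV-075 replicate 2 (-0.83, adjusted p = 0.0575), and KRT19 not without ABBV-075 replicate 1 (-0.44, adjusted p = 0.0597), ABBV-075 replicate 2 (-0.38, adjusted p = 0.155), ABBV-744 replicate 2 (-0.31, adjusted p = 0.17) or ABBV-744 replicate 3 (-0.52, adjusted p = 0.0714). The GC correction also ended the call of KRT19 (-0.18, edgeR adjusted p = 0.147) and moved LYZ to -0.74. The length correction ended the calls of LYZ (-0.22, edgeR adjusted p = 0.095) and KRT19 (-0.26, edgeR adjusted p = 0.115). Leaving out both ABBV-075 replicate 1 and ABBV-744 replicate 2 ended the edgeR calls of LYZ, ACTA2 and KRT19. Their values were then -0.45 (edgeR adjusted p = 0.076), -0.74 (0.055) and -0.29 (0.22).

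The libraries differed in the balance of genes with low and high GC content, measured as the median log2 deviation of the GC-poor tertile of genes minus that of the GC-rich tertile. It was 0.665, 0.38 and -0.176 in the ABBV-075 libraries and -0.215, -0.754 and -0.371 in the ABBV-744 libraries. The groups did not overlap, but ABBV-075 replicate 3 lay close to ABBV-744 replicate 1, and ABBV-075 replicate 1 and ABBV-744 replicate 2 lay farthest apart (two-sided exact permutation p = 0.1). DMSO libraries were between -0.294 and -0.0744. Called genes followed this balance. Of the 3599 genes in the GC-poor tertile (29.2% to 43.1% GC), 38% were called higher and 2.47% lower at an adjusted p of at most 0.05. In the middle tertile these shares were 6.98% and 14%, and in the GC-rich tertile (52.9% to 86.4% GC) 1.36% and 21.9%. The part of this balance in the results was not tested, and values after a per-library correction for GC content are given, singly or as a range, for named genes that were called and that it moved by over 1.5 times.

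**Figure D1:**
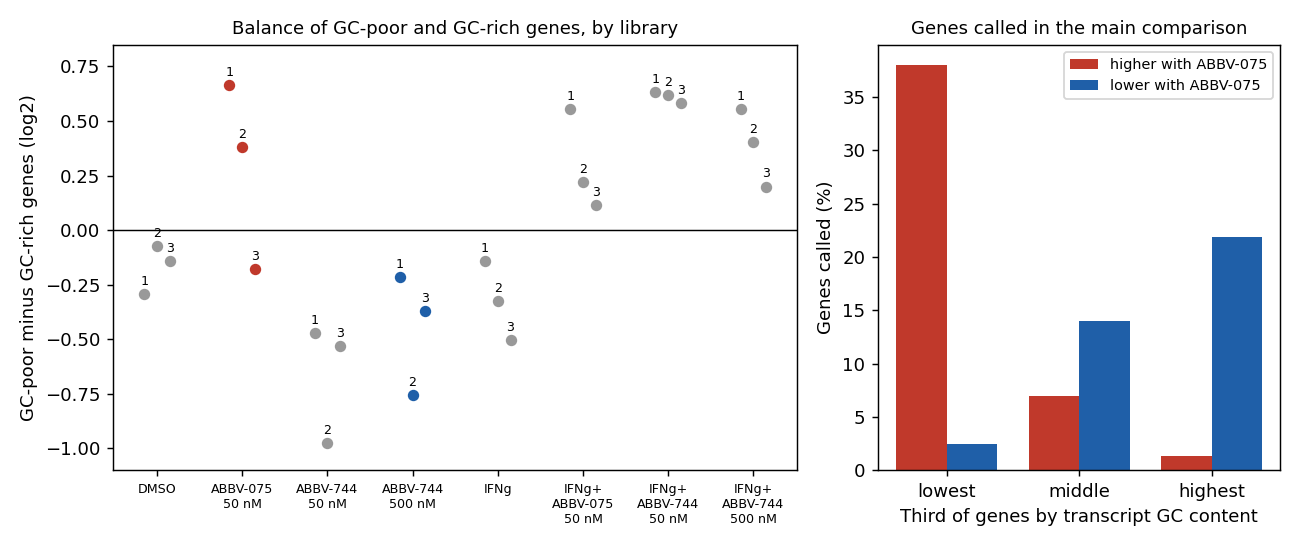
Left, balance of GC-poor and GC-rich genes (difference of median log2 deviations) in each library of the series, numbered by replicate, with ABBV-075 in red and ABBV-744 500 nM in blue. Right, percentage of genes called higher (red) or lower (blue) with ABBV-075 in each tertile of transcript GC content, from 38% higher among GC-poor genes to 21.9% lower among GC-rich genes.

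The FXR gene NR1H4 was far lower with ABBV-075 than with ABBV-744. Its level was 4.10, 4.88 and 2.41 CPM in the ABBV-075 libraries and 25.3, 24.7 and 23.3 CPM in the ABBV-744 libraries. Every ABBV-075 library lay below every ABBV-744 library (log2 fold change -2.67, SE 0.25, edgeR adjusted p = 0.000221). DMSO libraries had 54.7, 59.3 and 48.4 CPM and libraries with ABBV-744 at 50 nM had 27.7, 22.9 and 24.8 CPM. NR1H4 was thus highest with DMSO, intermediate at both ABBV-744 doses, whose values overlapped, and lowest with ABBV-075. In bulk RNA, fewer cells that express a gene and less of its RNA per cell cannot be told apart.

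HEXIM1 went the other way. It stood at 137, 146 and 152 CPM with ABBV-075, 93.9, 84.3 and 90.3 CPM with ABBV-744, 68.0, 66.9 and 60.3 CPM with ABBV-744 at 50 nM and 54.1, 56.8 and 50.6 CPM with DMSO. None of the 4 groups overlapped, and ABBV-075 gave the highest level of this P-TEFb inhibitor (log2 fold change 0.69, SE 0.12, edgeR adjusted p = 0.00436). Each marker thus moved away from DMSO in its own direction under both compounds, and farther under ABBV-075. Each comparison's own fit gave NR1H4 a log2 fold change of -3.83 for ABBV-075 against DMSO, -1.14 for ABBV-744 against DMSO and -2.72 for ABBV-075 against ABBV-744 at 50 nM. The corresponding values of HEXIM1 were 1.41, 0.74 and 1.14, so both markers also differed at the equal nominal dose. These comparisons share libraries, so their values are set side by side only.

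Outside the bile acid and P-TEFb pathways, EFR3B and HEPACAM had large differences. EFR3B, which helps to hold a phosphatidylinositol kinase at the plasma membrane, had 35.2, 44.2 and 40.9 CPM with ABBV-075 against 6.69, 7.05 and 9.78 CPM with ABBV-744, and 1.91 to 2.22 CPM with DMSO. This was the largest increase among the genes named by fold change (log2 fold change 2.34, SE 0.21, edgeR adjusted p = 0.00016). HEPACAM, a cell adhesion molecule of the immunoglobulin family, had 11.3, 15.8 and 14.4 CPM against 85.2, 96.4 and 94.3 CPM, and 146 to 164 CPM with DMSO. HEPACAM had the smallest adjusted p of all genes tested (log2 fold change -2.74, SE 0.17, edgeR adjusted p = 1.81e-05). Groups that do not overlap were a condition for naming genes by fold change, and 42.7% of all genes tested had them.

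**Figure D2:**
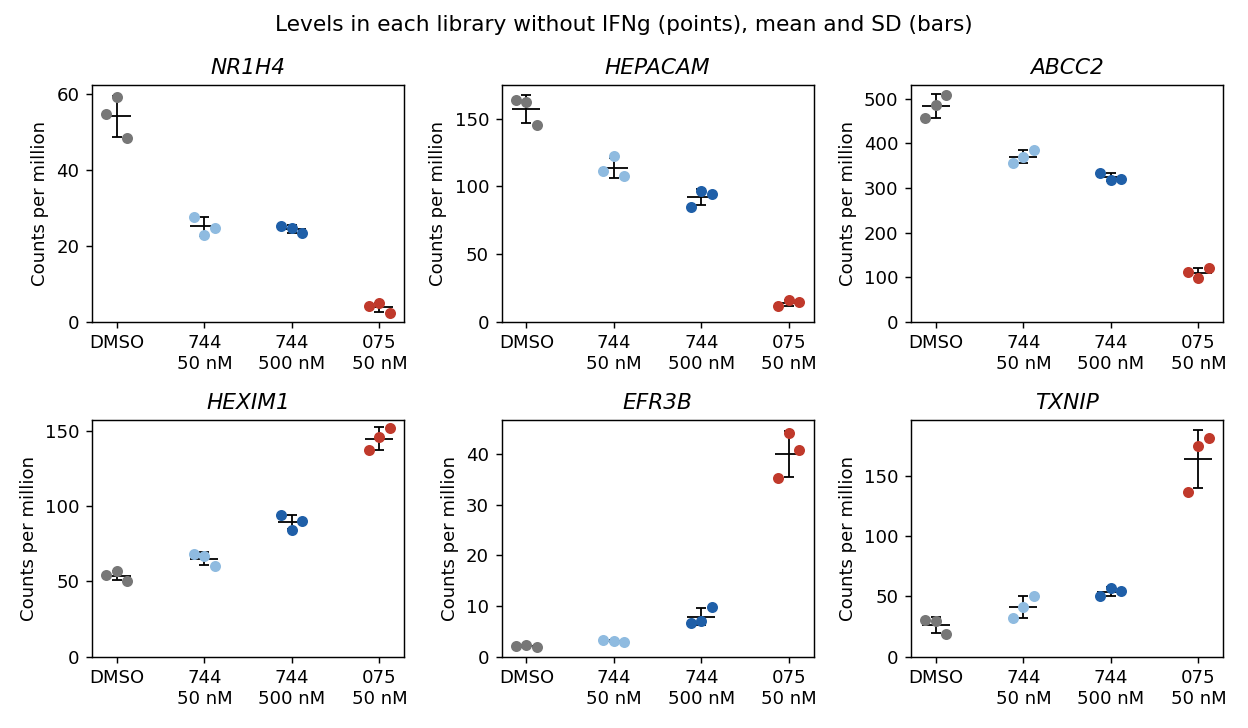
Level (CPM, axes from 0) of NR1H4, HEPACAM, ABCC2, HEXIM1, EFR3B and TXNIP in each library without IFNg, for DMSO, ABBV-744 at 50 nM and 500 nM, and ABBV-075 at 50 nM; points are libraries, and bars give the mean and SD of 3. In each panel the 3 ABBV-075 libraries lie apart from the 3 libraries of every other group, as for NR1H4 at 2.41 to 4.88 against 23.3 to 25.3 with ABBV-744 500 nM.

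The start regions of these 4 genes, whose levels moved in opposite directions, are shown because BET proteins act at promoters. Each is the RefSeq window of 300 bases on GRCh38.p14, from 250 bases before to 50 after the annotated start, 5' to 3' on the gene's strand. The windows are chr12:100503110-100503409 (plus strand) for NR1H4, chr11:124935998-124936297 (minus strand) for HEPACAM, chr17:45148225-45148524 (plus strand) for HEXIM1 and chr2:25041826-25042125 (plus strand) for EFR3B, the first of 2 windows of that gene. The NR1H4 and HEPACAM windows lie inside the genes as annotated in GENCODE v44 (chr12:100473708-100564414 and chr11:124919205-124936412). The outermost starts annotated there for these genes were not examined. Capitals mark matches, on either strand, to the TATA box, the CCAAT box, the GC box or the E-box.
NR1H4: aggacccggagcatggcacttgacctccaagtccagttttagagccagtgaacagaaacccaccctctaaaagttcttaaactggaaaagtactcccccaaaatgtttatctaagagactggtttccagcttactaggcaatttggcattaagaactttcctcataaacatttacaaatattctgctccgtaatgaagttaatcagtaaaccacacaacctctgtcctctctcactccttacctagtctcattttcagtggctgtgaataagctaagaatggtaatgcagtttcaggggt
HEPACAM: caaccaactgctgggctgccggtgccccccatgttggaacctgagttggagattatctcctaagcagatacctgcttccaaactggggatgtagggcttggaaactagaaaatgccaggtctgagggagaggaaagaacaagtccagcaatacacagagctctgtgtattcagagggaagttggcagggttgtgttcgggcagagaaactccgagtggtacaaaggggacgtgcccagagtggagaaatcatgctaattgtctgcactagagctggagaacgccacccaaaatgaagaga
HEXIM1: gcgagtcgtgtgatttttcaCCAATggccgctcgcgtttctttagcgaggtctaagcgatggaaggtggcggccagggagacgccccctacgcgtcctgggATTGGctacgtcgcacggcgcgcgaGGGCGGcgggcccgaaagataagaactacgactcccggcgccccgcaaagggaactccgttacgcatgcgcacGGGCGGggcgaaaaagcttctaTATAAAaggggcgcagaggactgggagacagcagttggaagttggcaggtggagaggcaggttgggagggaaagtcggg
EFR3B: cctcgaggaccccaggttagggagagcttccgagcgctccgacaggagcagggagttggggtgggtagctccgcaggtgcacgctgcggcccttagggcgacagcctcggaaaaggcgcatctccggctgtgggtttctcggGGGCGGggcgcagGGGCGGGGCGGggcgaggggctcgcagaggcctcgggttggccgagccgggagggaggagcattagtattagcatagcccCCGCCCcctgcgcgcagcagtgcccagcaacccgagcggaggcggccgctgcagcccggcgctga

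The windows of both lower genes, NR1H4 and HEPACAM, held 0 matches, with a GC content of 41.7% and 51.3% and 2 and 5 CG dinucleotides. HEXIM1 held 5 matches (1 TATA box, 2 CCAAT boxes and 2 GC boxes), 62% GC and 32 CG dinucleotides. EFR3B held 4 GC boxes, 72% GC and 30 CG dinucleotides. Of all 35116 RefSeq windows, 11.5% held the TATA box (TATAAA), 34.6% the CCAAT box (CCAAT), 45% the GC box (GGGCGG) and 7.26% the E-box (CACGTG). Among the 8776 windows matched to genes tested (80.1% of them) the shares were 5.2%, 37.9%, 72% and 10.6%. A match describes letters and not a bound site. The sets of called genes were not compared, because too few of the genes called lower (78.9%) or past the thresholds of the study (79.2% and 72.5%) had a window.

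MYC, a growth regulator often followed in BET inhibition, differed less. Its level was 63.9, 70.3 and 64.3 CPM with ABBV-075 and 89.6, 84.0 and 86.8 CPM with ABBV-744, beside 101 to 121 CPM with DMSO. The groups did not overlap (log2 fold change -0.40, SE 0.13, edgeR adjusted p = 0.0393). This call was lost in 13 of 21 alternative settings, among them the GC correction (log2 fold change -0.26, edgeR adjusted p = 0.0781). By edgeR it was lost without ABBV-075 replicate 1 (-0.37, adjusted p = 0.0906), ABBV-075 replicate 2 (-0.44, adjusted p = 0.0937), ABBV-744 replicate 1 (-0.37, adjusted p = 0.108), ABBV-744 replicate 2 (-0.42, adjusted p = 0.0935) or ABBV-744 replicate 3 (-0.40, adjusted p = 0.126). MYC was lower in every setting, with values from -0.44 to -0.26.

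BRD2 and BRD3, which encode BET proteins, did not pass the test. BRD2 had 129, 141 and 169 CPM against 174, 163 and 146 CPM (log2 fold change -0.15, SE 0.14), and BRD3 10.9, 17.8 and 13.2 CPM against 11.6, 13.8 and 14.7 CPM (0.05, SE 0.23). The groups overlapped for both, and the sign of each value turned in some settings, as with the GC correction for BRD2 (0.08). BRD3 stood at 0.28 with that correction and was not called. By edgeR the sign of BRD3 turned without ABBV-075 replicate 2 (-0.16, adjusted p = 0.697) or ABBV-744 replicate 1 (-0.04, adjusted p = 0.931). Of 23 genes of BET proteins and P-TEFb tested, 4 were called higher and 2 lower by edgeR, against 15.2% and 12.7% of all genes tested, and their median log2 fold change was 0.05, beside -0.01 over all genes tested. Beside HEXIM1, AFF4, a scaffold of the super elongation complex, rose (182, 208 and 160.0 CPM against 122, 91.3 and 104 CPM, log2 fold change 0.78, and 0.43 after the GC correction), and so did CCNT2, a cyclin of P-TEFb (0.91), which after the GC correction stood at 0.27 and was no longer called. By edgeR, CCNT2 was also not called without ABBV-075 replicate 2 (0.89, adjusted p = 0.0676), ABBV-744 replicate 2 (0.73, adjusted p = 0.0725) or ABBV-744 replicate 3 (0.89, adjusted p = 0.0644). Without both libraries farthest apart in GC balance, CCNT2 stood at 0.52 and was not called (edgeR adjusted p = 0.0625). NELFCD, a subunit of the complex that holds polymerase in pause, fell (84.4, 81.5 and 85.1 CPM against 139.9, 133 and 145 CPM, log2 fold change -0.74, SE 0.12, edgeR adjusted p = 0.00308).

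Across the transcriptome, 10955 genes had enough counts to be tested. By edgeR's quasi-likelihood test, 1670 (15.2%) were higher and 1392 (12.7%) lower at an adjusted p of at most 0.05. Under the thresholds of the study, which add a log2 fold change of 1.5 or more in either direction, 77 (0.703%) were higher and 91 (0.831%) lower. The groups did not overlap for 4674 genes (42.7%), among them 1428 of the 1670 higher and 1374 of the 1392 lower genes. The genes higher past the study's thresholds were GC-poor and long (median GC 37.5%, median transcript length 6758 bases), and those lower were GC-rich (55.2%, 3234 bases), against 47.5% and 3883 bases over all genes tested. Among the 77 higher genes, ABBV-075 replicate 1 was the highest of its group in 69 and replicate 3 the lowest in 71. These counts were 4112 and 4198 over all 10955 genes tested, and 15 and 19 among the 91 lower genes. After the GC correction 72 of the 77 and all 91 were still called at an adjusted p of at most 0.05, while the counts past the study's thresholds became 8 higher and 65 lower.

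Single libraries weighed heavily on the counts. Without ABBV-075 replicate 1, edgeR called 986 genes higher and 919 lower, with 23 and 96 past the thresholds of the study. Without replicate 2 the calls were 399 and 403, and without replicate 3 they were 2531 and 2210, with 235 and 151 past the study's thresholds. Leaving out ABBV-744 replicate 1 gave 155 higher genes past those thresholds, leaving out replicate 2 gave 443 higher and 534 lower genes, with 51 and 78 past those thresholds, and leaving out replicate 3 gave 524 and 580. Over all genes tested, the shares called higher and lower were 12.1% and 13.7% with the GC correction and 8.88% and 8.27% without ABBV-075 replicate 1, and list counts in those settings are to be read against them. Without both libraries that lay farthest apart in GC balance, an alternative chosen after seeing the data, 637 and 631 genes were called, and 24 and 82 passed the study's thresholds.

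Genes that fell most had varied roles. FUT6, a fucosyltransferase with close paralogs in FUT3 and FUT5 that may share reads, had 0.241, 1.44 and 0.301 CPM against 8.43, 6.41 and 7.76 CPM (log2 fold change -3.49, SE 0.47, edgeR adjusted p = 0.00148). SLC51B, a subunit of the basolateral bile acid exporter, had 4 counts in the ABBV-075 libraries together and 42 in the ABBV-744 libraries. Its ratio of ABBV-744 to ABBV-075 was 11.5 (95% exact counting interval 4.16 to 44). NFE2, an erythroid transcription factor, had 5 counts against 43 (ratio 9.38, interval 3.72 to 30.4), and GPRC5A, an orphan receptor that responds to retinoic acid, 7 against 34 (ratio 5.3, interval 2.31 to 14.2). For those 3 genes the fitted fold change depends on the prior count, and the intervals cover counting error only. FUT6 also had few counts with ABBV-075 (1, 5 and 1), and its value ranged from -4.65 to -2.46 over the settings. INHBE, a secreted inhibin subunit made by hepatocytes, had 0.574 to 1.5 CPM against 5.77 to 7.27 CPM (log2 fold change -2.80). ASB4 (-2.67) and TRIM50 (-2.48) encode parts of ubiquitin ligases, TNS4 (-2.44) encodes a tensin of focal adhesions, and LINC00176 is annotated as protein-coding in GENCODE v44. LINC00176 was the most abundant of these, with 21.7, 18.4 and 28 CPM against 98.9, 141 and 103 CPM (log2 fold change -2.34, SE 0.20, edgeR adjusted p = 0.000111).

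Many of the genes that rose most after EFR3B varied widely between the ABBV-075 libraries. CEP85L, a centrosomal protein, had 17.6, 15.5 and 12.3 CPM against 3.49, 2.88 and 4.03 CPM (log2 fold change 2.11, SE 0.27, edgeR adjusted p = 0.00113). SESN3, a sestrin of the stress response, had 14.0, 11.8 and 11.1 CPM against 1.75, 2.56 and 4.31 CPM (log2 fold change 2.08, SE 0.32, edgeR adjusted p = 0.00253). Groups that do not overlap were a condition for naming both genes. PNPLA8, a phospholipase, had 55.7, 49.7 and 37.9 CPM against 13.1, 8.33 and 13.2 CPM (log2 fold change 2.04). KIAA1033, a subunit of the WASH complex on endosomes, had 200.5, 137 and 70.1 CPM against 37.5, 32.7 and 36.5 CPM (1.93) and spread widely within the ABBV-075 group, with replicate 1 highest and replicate 3 lowest. LYST, a regulator of lysosome traffic, had a log2 fold change of 2.00, DOPEY1 of 2.01, the kinesin KIF3A of 1.88 and the lipid transporter ABCA5 of 1.88. The ETS factor GABPA (1.85), the zinc finger gene ZNF441 (1.84) and the intronic transcript ALMS1-IT1 (1.92) completed the 12. After the GC correction EFR3B stood at 2.60, but the other 11 were smaller, from 1.04 for ABCA5 to 1.7 for DOPEY1, and ALMS1-IT1 was no longer called (log2 fold change 1.21, edgeR adjusted p = 0.065). By edgeR, ALMS1-IT1 was also not called without ABBV-075 replicate 2 (1.66, adjusted p = 0.0635) or ABBV-744 replicate 3 (1.58, adjusted p = 0.0585), and ZNF441 not without ABBV-075 replicate 2 (1.76, adjusted p = 0.0507). Among the lower genes the corrected values were -3.21 for FUT6, -2.45 for HEPACAM and -2.07 for LINC00176.

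**Figure D3:**
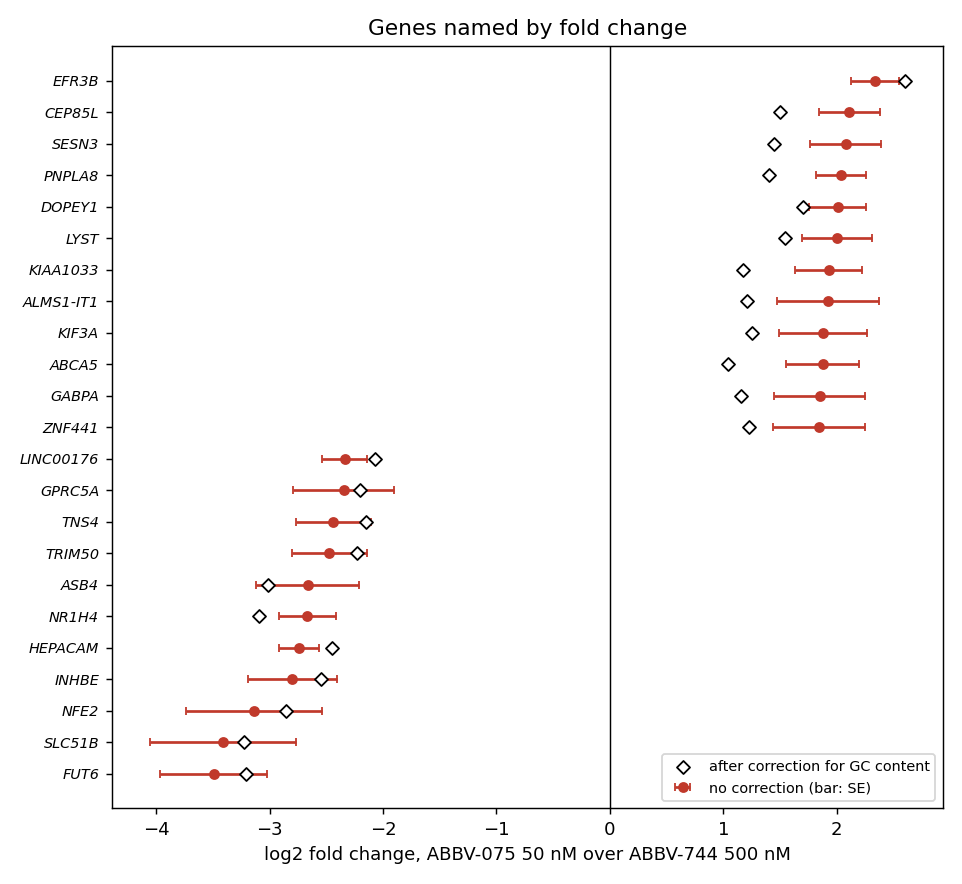
Log2 fold change of ABBV-075 50 nM over ABBV-744 500 nM for the 12 genes with the largest increase and 11 of the 12 with the largest decrease (red points, bars give the SE), with the value after correction for GC content (open diamonds). The corrected values of the higher genes other than EFR3B lie closer to 0, for example 1.04 in place of 1.88 for ABCA5.

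Several genes of bile acid handling fell along with NR1H4. Of 32 genes of FXR and bile acid pathways, 17 had enough counts, and edgeR called 9 of them lower and none higher, against 12.7% and 15.2% of all genes tested. Their median log2 fold change was -0.75, beside -0.01 over all genes tested. ABCC2, which pumps conjugated bile acids and bilirubin into bile, had 111, 98.2 and 121 CPM against 334, 319 and 319.8 CPM and 456 to 509.6 CPM with DMSO. Its groups were far apart (log2 fold change -1.57, SE 0.12, edgeR adjusted p = 5.33e-05). HSD3B7 and CYP27A1, enzymes of bile acid synthesis, had 37.4 to 47.2 CPM against 112 to 158 CPM (log2 fold change -1.64) and 128 to 156 CPM against 212 to 262 CPM (-0.75, and -0.46 after the GC correction). With SLC51B, the list thus held fallen genes of synthesis, of canalicular export and of basolateral export. The GC correction gave 9 lower and 1 higher, and leaving out ABBV-075 replicate 1 gave 9 lower.

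Many genes of plasma proteins that the liver secretes were lower. Among coagulation and fibrinolysis genes, 13 of 19 tested were called lower and none higher (median log2 fold change -0.70), and among acute-phase and carrier proteins 18 of 28 were lower and 1 higher (median -0.48), each against backgrounds of 12.7% and 15.2%. SERPINF2, the inhibitor of plasmin, had 111, 117 and 149.7 CPM against 238, 318 and 258 CPM (log2 fold change -1.11, SE 0.15, edgeR adjusted p = 0.00156). The SERPINF2 level with DMSO was 183 to 202 CPM, between the groups, and ABBV-744 was above DMSO (log2 fold change 0.50, edgeR adjusted p = 0.000648). SERPINA5, the protein C inhibitor, had 214, 222 and 257 CPM against 380.0, 449.8 and 403 CPM (log2 fold change -0.84, SE 0.12, edgeR adjusted p = 0.00231). No library of either gene crossed into the other group. AHSG (fetuin-A), an abundant plasma carrier, had 824, 1024 and 1393 CPM against 1985, 2209 and 1924 CPM (log2 fold change -0.92), and SERPINA6, which carries cortisol, 52.1 to 76.4 CPM against 99.7 to 120.5 CPM (-0.83). Of 16 complement genes tested 4 were lower and 1 higher (median -0.42), among them C4BPB, a chain of the C4b-binding protein, with 3.38, 3.45 and 4.21 CPM against 12.5, 13.1 and 12.4 CPM (log2 fold change -1.79, SE 0.25, edgeR adjusted p = 0.00164). The C4BPB level with DMSO was 31.1 to 35.3 CPM, above both inhibitor groups. Without ABBV-075 replicate 1 the lower calls were 11 of 20 coagulation, 12 of 28 acute-phase and 3 of 17 complement genes, and none of these complement genes was higher. The GC correction gave 14, 16 and 5 lower genes in these lists.

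Many enzymes of hepatic metabolism were lower too. Of 25 drug metabolism genes tested 15 were lower and none higher (median log2 fold change -0.45), and of 31 genes of amino acid and urea cycle enzymes 16 were lower and 1 higher (median -0.53), against 12.7% and 15.2% in the background. SULT2A1, which sulfates bile acids and steroids, had 10.9, 9.47 and 11.7 CPM against 35.2, 29.5 and 39.1 CPM (log2 fold change -1.70, SE 0.19, edgeR adjusted p = 0.000602). Its level with DMSO was 74.8 to 78.5 CPM, so that both inhibitor groups lay below the solvent. ADH6, an alcohol dehydrogenase, had a log2 fold change of -0.99, and CES1, a carboxylesterase whose reads may be shared with a near-identical copy, of -1.02. MAT1A, which makes S-adenosylmethionine in liver, had 50.7, 41.9 and 53.2 CPM against 124, 144 and 125 CPM (log2 fold change -1.44, SE 0.14, edgeR adjusted p = 0.000409), and FAH, the last enzyme of tyrosine breakdown, 24.7 to 30.4 CPM against 52.0 to 67.9 CPM (log2 fold change -1.08). With the GC correction 14 drug metabolism and 14 amino acid genes were lower, and without ABBV-075 replicate 1 these were 10 and 12.

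Fatty acid and apolipoprotein genes had more lower than higher calls, and cholesterol synthesis genes had as many of each. Of 39 fatty acid and triglyceride genes tested, 12 were lower and 5 higher (median log2 fold change -0.23), against 12.7% and 15.2% of all genes tested. The 5 higher are near that share. ACSL5 and ACSL3, which both activate fatty acids, moved in opposite directions, ACSL5 with 36.9, 34.7 and 33.4 CPM against 123, 117 and 139.5 CPM (log2 fold change -1.85, SE 0.14, edgeR adjusted p = 5.09e-05) and ACSL3 with 374, 291 and 194 CPM against 156, 115 and 143 CPM (log2 fold change 1.05, SE 0.21, edgeR adjusted p = 0.0063). ACSL3 was 0.40 after the GC correction and ACSL5 -1.90. GPD1, which makes glycerol 3-phosphate, had 8.44 to 12.6 CPM against 33.9 to 44.2 CPM (log2 fold change -1.81). Among 23 apolipoprotein and lipoprotein genes 8 were lower and 1 higher (median -0.42). MTTP, which loads lipid onto APOB, fell (63.9, 60.3 and 50.5 CPM against 118, 96.4 and 126 CPM, log2 fold change -0.97, SE 0.15, edgeR adjusted p = 0.00282), whereas APOB was the 1 gene that rose (13630, 13770 and 9177 CPM against 7433, 5901 and 6991 CPM, log2 fold change 0.84, SE 0.18, edgeR adjusted p = 0.00809). By edgeR, APOB was not called without ABBV-075 replicate 2 (0.75, adjusted p = 0.0502). Nor was it called without both libraries farthest apart in GC balance (0.66, edgeR adjusted p = 0.0639), where no gene of this list was higher. APOL1, an apolipoprotein of HDL, had a log2 fold change of -1.45. Cholesterol synthesis had 5 higher and 5 lower of 26 genes (median -0.07), both near the share of all genes tested. IDI1 (0.91) and SC5D (1.11) were higher and FDPS (-0.62) lower, though all 3 act in the same pathway. By edgeR, FDPS was not called without ABBV-075 replicate 2 (-0.57, adjusted p = 0.0666), ABBV-744 replicate 2 (-0.55, adjusted p = 0.0582) or ABBV-744 replicate 3 (-0.63, adjusted p = 0.0505). After the GC correction SC5D was 0.46, IDI1 0.54 and FDPS -0.34. The lower and higher calls with this correction were 11 and 8 of the fatty acid list, 8 and 2 of the apolipoprotein list and 7 and 4 of the cholesterol list, and without ABBV-075 replicate 1 they were 11 and 5, 6 and 1, and 3 and 5.

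TXNIP and its relative ARRDC4 rose. TXNIP, which limits glucose uptake, had 137, 175 and 182 CPM with ABBV-075 against 50.0, 57.4 and 54.6 CPM with ABBV-744 and 18.8 to 30.8 CPM with DMSO. Its groups were far apart (log2 fold change 1.60, SE 0.15, edgeR adjusted p = 0.000199). ARRDC4, its arrestin relative, had 24.4, 15.5 and 18.3 CPM against 8.43, 6.41 and 8.05 CPM (log2 fold change 1.34, SE 0.24, edgeR adjusted p = 0.00479). PKLR, the liver pyruvate kinase, and SLC2A2, the hepatocyte glucose transporter GLUT2, fell, with log2 fold changes of -1.51 and -1.13, and SLC2A2 was -1.74 after the GC correction. In all, 3 of 23 genes of glucose metabolism tested were higher and 7 lower (median -0.22), against 15.2% and 12.7%, with 2 and 9 after the GC correction and 2 and 6 of 24 without ABBV-075 replicate 1. The higher counts are near the share of all genes.

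Some transcription factors of the liver program were lower. Of 27 hepatocyte transcription factors tested 8 were lower and none higher (median log2 fold change -0.25), and of 19 lipid and xenobiotic nuclear receptors 4 were lower and 2 higher (median -0.25), against 12.7% and 15.2% of all genes tested. The counts of the nuclear receptors are near that background. NR2F6, an orphan nuclear receptor, had 63.0, 66.9 and 81.5 CPM against 118, 166 and 135 CPM, and its groups did not overlap (log2 fold change -0.99, SE 0.16, edgeR adjusted p = 0.00308). AHR, the receptor for dioxin-like ligands, rose (254, 197 and 179 CPM against 102, 82.0 and 87.7 CPM, log2 fold change 1.21, SE 0.15, edgeR adjusted p = 0.00114), and stood at 0.64 after the GC correction. With the GC correction 5 hepatocyte factors and 3 nuclear receptors were lower, and without ABBV-075 replicate 1 these were 4 and 2. Of the 14 hepatocyte identity markers, 4 were lower and 1 higher (median -0.24), which includes AHSG and APOB, and 7 were lower with the GC correction.

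Some cytokine and interferon-linked genes were lower, and others were not called. Among 16 inflammatory cytokine and chemokine genes tested 9 were lower and none higher (median log2 fold change -0.53), and among 37 interferon-linked and antigen presentation genes 11 were lower and 2 higher (median -0.31), against 12.7% and 15.2%. LIF, a cytokine of the interleukin 6 family, had 3.62, 3.73 and 4.51 CPM against 16.9, 20.5 and 16.7 CPM (log2 fold change -2.19, SE 0.24, edgeR adjusted p = 0.000529), and IL1RN, the interleukin 1 receptor antagonist, 6.27, 2.87 and 5.41 CPM against 14.5, 20.5 and 18.7 CPM (log2 fold change -1.86, SE 0.28, edgeR adjusted p = 0.00253). Neither gene had overlapping groups, and both were higher with DMSO, at 29.5 to 39.6 and 29.8 to 36.2 CPM. IFNGR2, a chain of the IFNg receptor, had 43.9 to 56.2 CPM against 89.8 to 100.1 CPM (log2 fold change -0.93). UBE2L6, which conjugates the ubiquitin-like protein ISG15, stood at -1.14, and by edgeR it was not called without ABBV-075 replicate 2 (-1.07, adjusted p = 0.0584). The lower calls were 7 cytokine and 9 interferon-linked genes with the GC correction, and 7 of 17 and 7 of 38 without ABBV-075 replicate 1, with 1 interferon-linked gene higher in either setting.

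Mitosis genes stood out among the lists with more higher than lower genes. Of 37 tested 14 were higher and 5 lower, against 15.2% and 12.7% of all genes tested, with a median log2 fold change of 0.20. ASPM, a spindle pole protein, had 127, 90.7 and 50.2 CPM against 31.4, 23.1 and 35.1 CPM (log2 fold change 1.57, SE 0.28, edgeR adjusted p = 0.0048), and the checkpoint kinase BUB1 369, 294 and 271 CPM against 194, 149 and 184 CPM (log2 fold change 0.82, SE 0.15, edgeR adjusted p = 0.0048). PLK1, a kinase of mitotic entry, and CDC20, which activates the anaphase-promoting complex, went the other way, with 60.1, 67.8 and 76.4 CPM against 112, 159 and 136 CPM (log2 fold change -1.0) and 78.7, 79.2 and 105 CPM against 153, 166 and 159 CPM (-0.87). The list therefore did not move as one. After the GC correction the counts were again 14 and 5, and ASPM stood at 0.91 and BUB1 at 0.55, while without ABBV-075 replicate 1 they were 14 and 3. DNA replication genes had 3 higher and 3 lower of 38 (median -0.07), with the helicase subunit MCM5 lower (-0.94) and the checkpoint mediator CLSPN higher (0.70). By edgeR, CLSPN was not called without ABBV-075 replicate 2 (0.67, adjusted p = 0.0506). Of 23 MYC and G1 genes, 2 were higher and 4 lower (median -0.04), including CDK4, the kinase of G1 (-0.60), and RB1, its substrate (1.04). Both lists are near or below the share of all genes tested. CDK4 was -0.38 after the GC correction. RB1 was 0.38 and no longer called after the GC correction, and by edgeR it was not called without ABBV-075 replicate 2 (0.99, adjusted p = 0.0635), ABBV-744 replicate 2 (0.99, adjusted p = 0.0602) or ABBV-744 replicate 3 (0.97, adjusted p = 0.0622) either. CDK4 was not called by edgeR without ABBV-075 replicate 2 (-0.55, adjusted p = 0.0695), ABBV-744 replicate 2 (-0.52, adjusted p = 0.063) or ABBV-744 replicate 3 (-0.59, adjusted p = 0.0567). With the GC correction 3 replication genes were higher and 5 lower, and 2 and 2 of the G1 list, and without ABBV-075 replicate 1 these were 1 and 3, and 1 and 2.

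Single genes of the stress, histone and growth factor lists were called in either direction. Of 29 genes of p53, stress and DNA damage, 6 were higher and 3 lower (median log2 fold change 0.06), against 15.2% and 12.7% of all genes tested. HMOX1, which degrades heme, fell (31.4, 28.1 and 37.6 CPM against 73.9, 94.2 and 79.7 CPM, log2 fold change -1.36, SE 0.17, edgeR adjusted p = 0.000945), and the chaperone HSP90AA1, whose reads may be shared with near-identical copies, rose (2677, 1973 and 1161 CPM against 829, 574 and 713 CPM, log2 fold change 1.45, SE 0.25, edgeR adjusted p = 0.00383). Histone genes had 5 higher and 1 lower of 26 (median 0.03), among them the variants H2AFJ (1.05) and H1F0 (0.42, and 0.65 after the GC correction). By edgeR, H2AFJ was not called without ABBV-744 replicate 3 (0.88, adjusted p = 0.0536), and H1F0 not without ABBV-075 replicate 2 (0.44, adjusted p = 0.0724), ABBV-744 replicate 1 (0.36, adjusted p = 0.0771) or ABBV-744 replicate 3 (0.40, adjusted p = 0.0999). Among 26 genes of EGF family, growth factor and signalling, 5 were higher and 4 lower (median 0.05), near the share of all genes tested. CTGF, a matrix protein induced by YAP, had 89.8, 102 and 119 CPM against 41.6, 41.3 and 41.1 CPM, and the ERK phosphatase DUSP6 254, 246 and 260.1 CPM against 139, 145 and 151 CPM. Each had separate groups, with log2 fold changes of 1.32 and 0.80. VAV3, a guanine nucleotide exchange factor, fell (2.90, 6.03 and 3.61 CPM against 16, 13.5 and 12.7 CPM, log2 fold change -1.76, SE 0.29, edgeR adjusted p = 0.00328). Higher and lower calls with the GC correction were 9 and 4 of the stress list, 9 and 0 of the histones and 7 and 3 of the growth factor list, and 5 and 2, 4 and 0, and 5 and 2 without ABBV-075 replicate 1.

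Adhesion, junction and keratin genes had 9 lower and 1 higher of 26 tested (median log2 fold change -0.14), against 12.7% and 15.2% of all genes tested. ST6GAL1, a sialyltransferase, had 77.0, 76.1 and 86.0 CPM against 239, 283 and 270.3 CPM, with the groups far apart (log2 fold change -1.74, SE 0.13, edgeR adjusted p = 4.9e-05). GJB1, the main gap junction protein of hepatocytes, had a log2 fold change of -1.25 and the keratin KRT23 of -1.5. Apoptosis genes had 6 lower and 4 higher of 29 (median -0.15), which is near that background. The inflammatory caspase CASP4 fell (-1.12, and -1.69 after the GC correction), and MCL1, which holds back apoptosis, rose (0.56). The edgeR call of MCL1 was lost without ABBV-075 replicate 2 (0.56, adjusted p = 0.0651), ABBV-744 replicate 2 (0.49, adjusted p = 0.0713) or ABBV-744 replicate 3 (0.54, adjusted p = 0.0711). Without ABBV-075 replicate 1, 5 of 27 adhesion genes and 5 of 29 apoptosis genes were lower, and 1 apoptosis gene was higher. The GC correction gave 2 higher and 6 lower apoptosis genes, and 1 higher and 9 lower adhesion genes.

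None of 78 cytosolic ribosomal protein genes was called higher by edgeR and 6 were lower (median log2 fold change -0.17), against 15.2% and 12.7% of all genes tested. RPS16, a protein of the small subunit, had 353, 357 and 449 CPM against 498, 583 and 587 CPM (log2 fold change -0.53, SE 0.13, edgeR adjusted p = 0.0142). The edgeR call of RPS16 was lost without ABBV-075 replicate 2 (-0.48, adjusted p = 0.0797), ABBV-744 replicate 2 (-0.50, adjusted p = 0.0639) or ABBV-744 replicate 3 (-0.49, adjusted p = 0.0726). The 6 lower calls (7.69%) became 14 (17.9%) with the GC correction, where 13.7% of all genes tested were lower, and 1 without ABBV-075 replicate 1. The position of this list against all genes thus turned with the correction. Ribosome biogenesis had 8 lower and 2 higher of 30 genes (median -0.25), with PES1, a factor of large subunit assembly, at -0.95. These became 7 and 0 with the GC correction, and 6 and 1 without ABBV-075 replicate 1. Among 32 abundant non-coding RNAs 3 were higher and 3 lower (median -0.17), with 6 lower after the GC correction. NEAT1, the scaffold RNA of paraspeckles, rose clearly, with 626, 879.8 and 709 CPM against 279, 305 and 329 CPM and 142 to 172 CPM with DMSO (log2 fold change 1.27, SE 0.14, edgeR adjusted p = 0.000576). HAGLR, an antisense transcript of the HOXD cluster, fell (-0.99).

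The genes measured by qRT-PCR in the study were chosen on samples of this series, so their count is not independent evidence. Of 39 such genes 18 had enough counts, and 14 were lower and 3 higher (median log2 fold change -1.62), against 12.7% and 15.2% of all genes tested. The 3 higher are near that share. Lower genes not yet named include the acyltransferase GPAM (-1.08), the glycine transporter SLC6A9 (-1.76), the fibrinolysis inhibitor CPB2 (-0.72) and the non-coding RNAs PART1 (-1.48) and NPSR1-AS1 (-1.38). The higher ones were TXNIP, CCNT2-AS1 (0.82) and the short-chain dehydrogenase DHRS2. DHRS2 was among the most abundant transcripts, with 14120, 14280 and 16840 CPM against 9923, 10910 and 10450 CPM and 2093 to 2239 CPM with DMSO (log2 fold change 0.53, SE 0.14, edgeR adjusted p = 0.0191). Both inhibitor groups thus lay far above DMSO. After the GC correction CPB2 stood at -1.30, NPSR1-AS1 at -2.08 and CCNT2-AS1 at 0.49. PSMB8, a subunit of the immunoproteasome, did not pass (log2 fold change -0.98, SE 0.37, edgeR adjusted p = 0.0675). With all 24 libraries in the fit, PSMB8 was called lower (-0.98, edgeR adjusted p = 0.0123). CCNT2-AS1 lost its call in 15 of 21 settings, which include each fit without ABBV-075 replicate 1 (0.85, adjusted p = 0.114), ABBV-075 replicate 2 (0.82, adjusted p = 0.123), ABBV-075 replicate 3 (0.79, adjusted p = 0.0763), ABBV-744 replicate 1 (0.78, adjusted p = 0.113), ABBV-744 replicate 2 (0.85, adjusted p = 0.114) and ABBV-744 replicate 3 (0.83, adjusted p = 0.119) by edgeR. DHRS2 was not called by edgeR without ABBV-075 replicate 2 (0.57, adjusted p = 0.0589), ABBV-744 replicate 1 (0.49, adjusted p = 0.0541), ABBV-744 replicate 2 (0.56, adjusted p = 0.0617) or ABBV-744 replicate 3 (0.53, adjusted p = 0.0808). Among the lower genes, GPAM lost its edgeR call without ABBV-075 replicate 2 (-1.05, adjusted p = 0.0553) and CPB2 without ABBV-075 replicate 2 (-0.66, adjusted p = 0.0665) or ABBV-744 replicate 3 (-0.63, adjusted p = 0.0638). PART1 lost its edgeR call without ABBV-075 replicate 2 (-1.46, adjusted p = 0.0583) or ABBV-744 replicate 3 (-1.12, adjusted p = 0.0635), and NPSR1-AS1 without ABBV-075 replicate 1 (-1.12, adjusted p = 0.0624) or ABBV-744 replicate 3 (-1.35, adjusted p = 0.0553). NPSR1-AS1 was also not called by DESeq2 (-1.36, adjusted p = 0.0545) or without both libraries farthest apart in GC balance (-1.195, edgeR adjusted p = 0.0749).

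**Figure D4:**
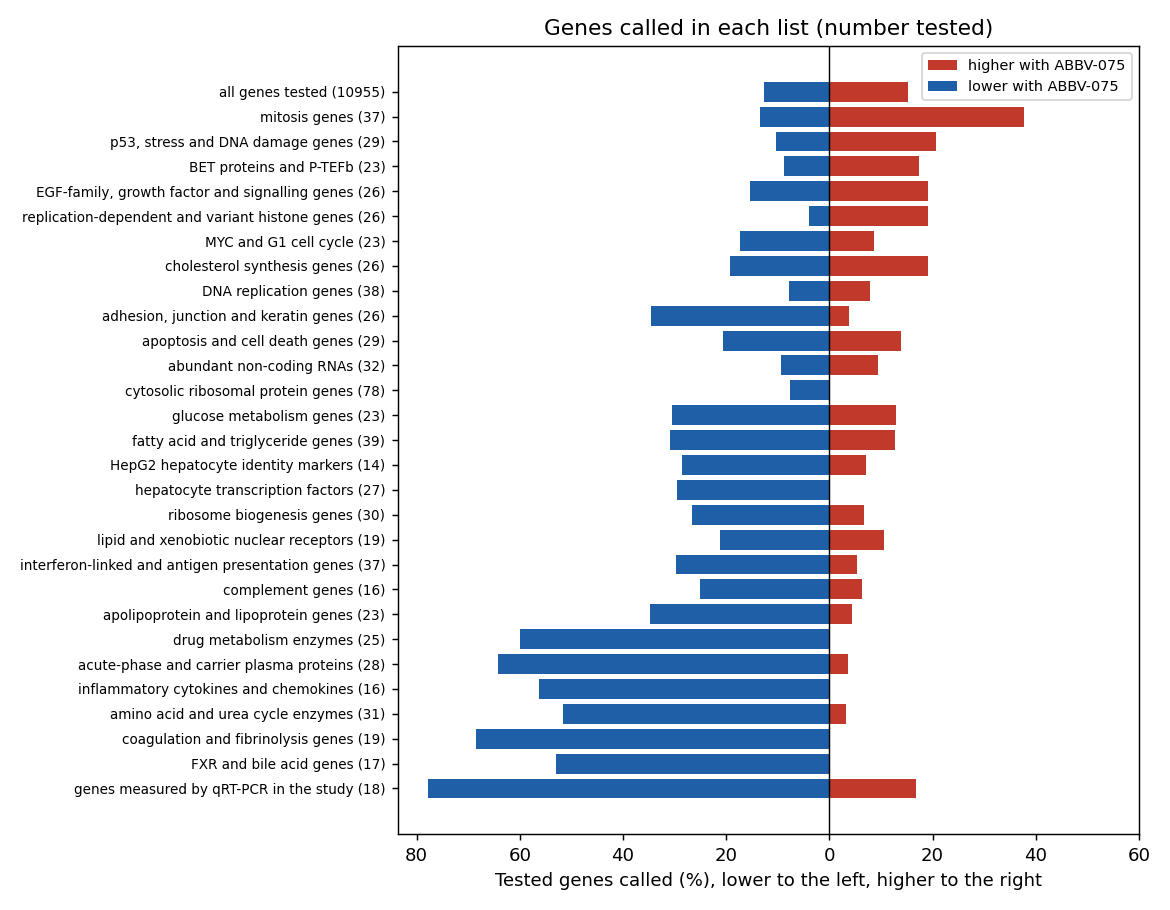
Percentage of the tested genes of each list that were called higher (red, to the right) or lower (blue, to the left) with ABBV-075 than with ABBV-744 500 nM, with the number tested in brackets and all genes tested in the top bar (15.2% and 12.7%). Mitosis genes had 14 of 37 higher, and lists of secreted proteins and hepatic enzymes had most of their calls to the left.

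Many list counts were smaller without both libraries farthest apart in GC balance, where 5.79% of all genes tested were higher and 5.74% lower. The counts of lower genes in that fit were 8 of 17 bile acid, 10 of 19 coagulation, 10 of 28 acute-phase and 6 of 16 inflammatory genes, each above the share of all genes. Among enzymes and lipid genes the lower calls were 7 of 25 in drug metabolism, 10 of 31 in amino acid metabolism, 10 of 39 in fatty acid metabolism, 7 of 23 among apolipoproteins and 5 of 37 among interferon-linked genes. In other lists the lower calls were 3 of 27 hepatocyte transcription factors, 2 of 19 nuclear receptors, 2 of 16 complement and 3 of 23 glucose genes. They were 2 of 30 ribosome biogenesis, 5 of 27 adhesion, 3 of 29 apoptosis and 2 of 14 identity genes, and none of 78 ribosomal protein genes by edgeR. Each of these shares except that of the ribosomal protein genes was above 5.74%, though on few genes. In the same fit 11 of 37 mitosis genes were higher and 2 lower, 5 of 26 histone genes and 5 of 29 stress genes were higher, and no apoptosis gene was. Higher and lower calls were 3 and 1 of 26 for growth factor genes, 3 and 1 of 26 for cholesterol synthesis, 1 and 4 of 38 for DNA replication, 1 and 1 of 23 for the G1 list, 2 and 1 of 23 for BET and P-TEFb genes, and 2 and 3 of 32 for non-coding RNAs. These counts are small. Of the qRT-PCR list 13 of 18 were lower and 1 higher. This fit was chosen after seeing the data. Named genes that lost their edgeR call in it were MYC, CCNT2, CCNT2-AS1, APOB, FDPS, MCL1, RPS16, CDK4, DHRS2, NPSR1-AS1, LYZ, ACTA2 and KRT19.

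Against DMSO, the liver lists lay closer to 0 with ABBV-744 than with ABBV-075. The median log2 fold change of the bile acid list was -0.91 for ABBV-075 against DMSO and -0.20 for ABBV-744 against DMSO. For coagulation these medians were -0.74 and -0.21, for drug metabolism -0.68 and -0.21, for amino acid enzymes -0.67 and -0.03, and for inflammatory genes -1.12 and -0.53. Mitosis genes had 0.12 and -0.01, and histone genes 0.49 and 0.44. In the comparison with ABBV-744 at 50 nM, the dose equal to that of ABBV-075, the medians were -0.67 for bile acid genes, -0.69 for coagulation, -0.42 for drug metabolism and 0.33 for mitosis. The comparisons share libraries with each other, and the number of genes tested differs between them.

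The same pair of treatments was measured in other libraries with IFNg added. NR1H4 was again lower, at 5.97, 5.17 and 3.01 CPM with IFNg and ABBV-075 and 42.6, 40.9 and 34.4 CPM with IFNg and ABBV-744 (log2 fold change -3.0, SE 0.21, edgeR adjusted p = 5.71e-11). HEXIM1 was again higher, at 136, 129 and 140.1 CPM against 71.9, 69.4 and 73.2 CPM (log2 fold change 0.94, SE 0.10, edgeR adjusted p = 2.06e-07). The groups of both markers were separate with IFNg as they were without it. EFR3B (2.87), TXNIP (1.49), HEPACAM (-2.28) and ABCC2 (-1.68) kept their directions and calls. SLC51B had a log2 fold change of -0.13 with IFNg and MYC of -0.19, and neither was called (edgeR adjusted p = 0.89 and 0.269). For MYC the difference between the contrasts without and with IFNg did not pass either (-0.18, edgeR adjusted p = 0.474). The GC balance of these libraries was 0.556, 0.22 and 0.115 with ABBV-075 and 0.553, 0.406 and 0.2 with ABBV-744, so the groups overlapped in it.

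Of 10967 genes tested with IFNg, edgeR called 725 (6.61%) higher and 830 (7.57%) lower, and 11 (0.1%) and 66 (0.602%) passed the thresholds of the study. Of the 91 genes lower past those thresholds without IFNg, 74 were tested with IFNg. Each of the 74 had a negative log2 fold change there too, and 55 (60.4% of the 91) were called lower. Under the same thresholds 33 genes were shared, 36.3% of the 91 and 50% of the 66. Of the 77 higher genes 76 were tested, 70 had the same sign and 32 (41.6% of the 77) were called higher, while 4 were shared under the same thresholds (5.19% of the 77 and 36.4% of the 11). For comparison, 60.5% of all genes tested in both had the same sign. At an adjusted p of at most 0.05 alone, 269 higher genes were shared (16.1% and 37.1% of the lists) and 409 lower ones (29.4% and 49.3%). At that threshold, 1162 of the 1667 higher genes tested with IFNg (69.7%) had the same sign there. For lower genes this was 1148 of 1351 (85%). With IFNg, 15 of these higher genes and 1 of these lower genes were called in the opposite direction. Leaving out IFNg+ABBV-744 replicate 2 brought the counts with IFNg to 378 higher and 498 lower, and leaving out IFNg+ABBV-075 replicate 2 or 3 to 432 and 531 or 443 and 546. The 11 higher genes past the study's thresholds became 17 without IFNg+ABBV-075 replicate 1, and 19, 18 and 28 without IFNg+ABBV-744 replicate 1, 2 or 3.

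Among the lists with IFNg, edgeR called 13 of 19 coagulation genes (median log2 fold change -0.51), 9 of 18 bile acid genes (-0.45) and 8 of 22 drug metabolism genes (-0.17) lower, against 7.57% of all genes tested. Mitosis genes had 2 higher and 1 lower of 37 with IFNg, against 6.61% and 7.57% of all genes tested, and a median near 0 (-0.0025). ASPM was -0.01 with IFNg against 1.57 without.

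**Figure D5:**
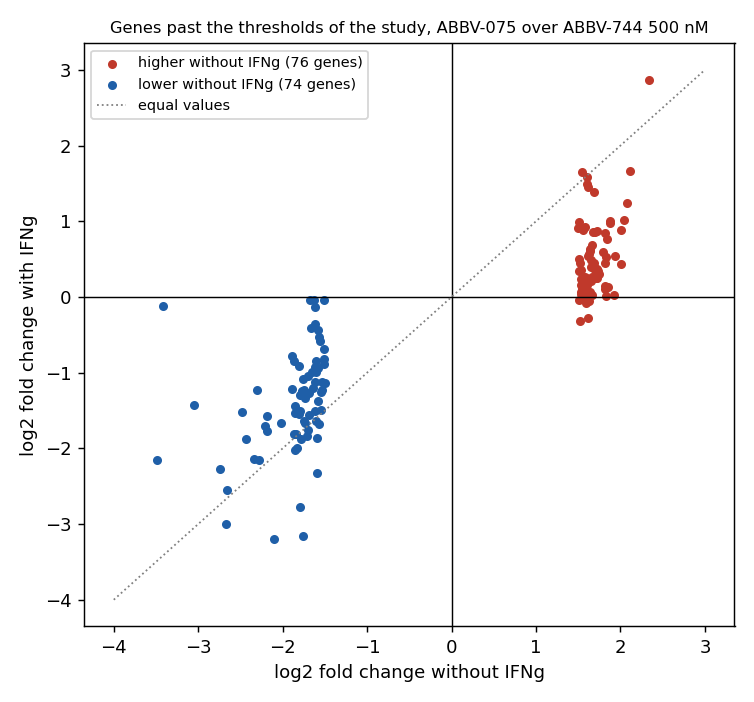
Log2 fold change of ABBV-075 50 nM over ABBV-744 500 nM without IFNg (horizontal) and with IFNg (vertical) for genes past the thresholds of the study without IFNg and tested in both; red points were higher (76 genes), blue points lower (74 genes), and the dotted line marks equal values. All 74 lower genes lie below 0 on the vertical axis, and 70 of the 76 higher genes lie above it, most of them below the dotted line.

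Whether the contrast differed with IFNg was tested directly, as an interaction term over 12 libraries. Of 11298 genes tested, edgeR called 644, with 520 (4.6%) more positive without IFNg and 124 (1.1%) more negative. Of the 641 tested in both single comparisons, 446 had opposite signs with and without IFNg, 189 had the same sign and a larger value without it, and 6 had the same sign and a larger value with it. AGT, which encodes angiotensinogen, is an example, with 249, 272 and 339 CPM against 618, 706 and 690.2 CPM without IFNg and 269, 265 and 298 CPM against 314, 318 and 302 CPM with it. The groups were far apart without IFNg and close, though separate, with it (interaction log2 -1.06, SE 0.16, edgeR adjusted p = 0.0178). TGFBI, a matrix protein, had log2 fold changes of -0.84 and 0.25, CDC20 of -0.87 and 0.31, SERPINF2 of -1.11 and -0.02, and UBXN7, a cofactor of the unfoldase p97, of 0.82 and -0.15. After the GC correction the UBXN7 difference without IFNg was 0.37, and its interaction value fell from 1.00 to 0.48 and was not called (edgeR adjusted p = 0.0964). The interaction terms of NR1H4 (0.36, SE 0.36) and HEXIM1 (-0.22, SE 0.15) did not pass (edgeR adjusted p = 0.53 and 0.331). The excess of more positive values rested on the setting, since the GC correction left 192 genes (91 more positive and 101 more negative) and library size alone left 4, all more negative. Leaving out ABBV-075 replicate 2, ABBV-744 replicate 2 or 3, IFNg+ABBV-075 replicate 2 or 3, or IFNg+ABBV-744 replicate 1 or 2 left 0 by edgeR, with 2292 to 2797 genes at an unadjusted p under 0.05, against 3095 in the full fit. Without ABBV-075 replicate 1 there were 3, without ABBV-075 replicate 3 there were 3034, without ABBV-744 replicate 1 there were 1087 and without IFNg+ABBV-075 replicate 1 there were 1038. The interaction value lay between -1.37 and -0.86 for AGT, -1.22 and -0.91 for TGFBI, -1.33 and -0.84 for CDC20, -1.24 and -0.74 for SERPINF2, and 0.48 and 1.05 for UBXN7 over all settings. UBXN7 and SERPINF2 also lost their edgeR calls without ABBV-075 replicate 1 (0.94 and -0.98, adjusted p = 0.0678 for both).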

How the data were processed

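The authors sequenced ribosomal RNA-depleted, strand-specific libraries of HepG2 cells (base calls with CASAVA 1.8.2), used Trimmomatic 0.33 for trimming, STAR 2.7.1 for alignment and DESeq2 for the test. Each deposited file gives the unnormalized read count of every gene symbol in 1 library, in the layout that STAR writes, where reads with several alignments are not assigned to genes. Reads that FUT6, CES1 or HSP90AA1 may share with their copies would thus not be counted. No source names the gene annotation behind the counts. Column 4 holds sense reads and was analysed (98.4% to 98.5% of reads assigned to either strand). An alternative took column 2, which ignores strand. In the 6 libraries 13% to 15.6% of reads were on genes, 56% to 68.1% aligned to several places, 15.6% to 25.3% lay outside genes and 1.93% to 2.43% were unmapped. Of reads on genes, 25.1% to 30.1% fell on the 10 most abundant genes. The files hold no mitochondrial genes.

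Counts were analysed in R 4.3.3 with edgeR 4.0.16 (filterByExpr, TMM, quasi-likelihood test, Benjamini-Hochberg adjustment over all genes tested) on the 6 libraries of each comparison and no covariate. The interaction with IFNg used 12 libraries in 4 groups. Single values were compared with two-sided exact permutation tests of 3 against 3, which cannot give a p below 0.1. The floor of detection was 3 counts per library, and counting intervals (95%, exact) cover counting error only. Of 26475 symbols 23161 matched GENCODE v44 by symbol, 1384 by alias and 1930 not at all; GC content and length are those of the longest transcript. Promoter windows came from RefSeq on GRCh38.p14.

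Genes named in the text were NR1H4, HEXIM1 and MYC, the 12 with the largest log2 fold change in each direction (adjusted p of at most 0.05, mean log2 CPM of at least 1, groups that do not overlap), up to 4 genes of each list with the smallest adjusted p, BRD2 and BRD3, the tested genes measured by qRT-PCR, and 5 genes for the interaction. Some genes that this choice gave are not named, among them 1 of the 12 lower ones, and they stay in all counts. Further genes of the interaction are those already named that it called. The libraries and lists were chosen with earlier results of these data known. Alternatives were DESeq2 1.42.0, RLE, library size only, no filter, a strict filter (a minimum of 10 counts in each library), a fit on all 24 libraries, the replicate number as a block, both strands, a GC correction (lowess, span 0.3) alone and with the block, thinning to equal size, the 10 most abundant genes left out, and each library left out. Chosen after seeing the data were a length correction, the GC correction without ABBV-075 replicate 1, and the fit without ABBV-075 replicate 1 and ABBV-744 replicate 2. The fits were tested on simulated data, which had the same dispersion for all genes and no difference in GC balance between libraries. That test therefore does not cover such differences.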

Additional observations from a re-analysis of the deposited data

Results flagged for a closer look

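The difference of the inhibitor contrast with and without IFNg passed edgeR's test for 644 genes, which include 22 of the genes named. The interaction value is the log2 fold change of ABBV-075 over ABBV-744 without IFNg minus that with IFNg, and a negative value means that this log2 fold change was smaller (more negative or less positive) without IFNg. Among these 22 genes the smallest adjusted p by edgeR (0.0178) belonged to AGT (-1.06), TGFBI (-1.06) and CDC20 (-1.15). UBXN7 had 1.00 and SERPINF2 -1.07. Among liver genes the interaction was -0.88 for CES1, -0.89 for AHSG, -0.62 for SERPINA5, -3.25 for SLC51B (a gene of few counts), 0.83 for APOB, 0.95 for ACSL3 and 0.93 for SC5D. The heme oxygenase HMOX1 had -0.88, the chaperone HSP90AA1 1.30 and the keratin KRT19 -0.73. Genes higher with ABBV-075 without IFNg and less so with it were DOPEY1 (1.60), KIAA1033 (1.42), PNPLA8 (1.05), GABPA (1.75) and AFF4 (0.65). Their transcript GC content was 35.5% to 41.7%, against a median of 47.5% over all genes tested. The mitosis genes ASPM and PLK1 had 1.62 and -0.87. With the GC correction the interaction called 192 genes in place of 644. Of the 22 genes, corrected interaction values are given only for AGT (-0.86), TGFBI (-0.91), CDC20 (-0.84), SERPINF2 (-0.74) and UBXN7 (0.48, no longer called). The interaction count was 0 by edgeR in 7 of 12 fits that left out a library, with 2292 to 2797 genes at an unadjusted p under 0.05. With 3 libraries a group, a check for single libraries far from their group does not apply. Between pairs of ABBV-075 libraries, the chi-square per gene was 3.97 (replicates 1 and 2), 16.6 (1 and 3) and 8.3 (2 and 3). For ABBV-744 these values were 6.63, 2.16 and 4.88.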

How the results depend on the processing

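Gene values recomputed under the alternatives kept their direction and their side of the threshold in 2058 cases, lost the call in 140, gained it in 1 and turned in 7. Of 97 named genes called in the comparison, 74 kept their call in every setting that tested them, 25 of 36 higher and 49 of 61 lower. The values that turned belonged to BET genes that were not called, BRD2 and BRD3. BRD2 turned with the GC correction (0.0819), with the GC correction and the replicate block (0.0854) and with the GC correction without ABBV-075 replicate 1 (0.114). BRD3 turned on both strands (-0.0128) and with the length correction (-0.0732), and without 1 library it ranged from -0.158 to 0.213. No setting moved the median of all genes by more than 0.1.

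Counts that moved by over 1.5 times in the comparison were, with no filter, 167 lower genes past the thresholds of the study, and with the strict filter 40, since the filter changes which genes are tested. With all 24 libraries in the fit there were 2553 higher and 2310 lower genes, 149 of them lower past those thresholds. Higher genes past those thresholds numbered 8 with the GC correction, 10 with the GC correction and the replicate block and 39 with the length correction. Under the GC correction without ABBV-075 replicate 1 there were 979 higher genes and 16 past those thresholds. Without both libraries farthest apart in GC balance there were 637 higher, 631 lower and 24 higher past those thresholds. Leaving out 1 library gave 399 to 2531 higher, 403 to 2210 lower, and 23 to 235 higher and 78 to 151 lower past those thresholds.

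With IFNg, DESeq2 called 380 higher and 445 lower genes. No filter gave 35 and 100 past the thresholds of the study, the strict filter 5 and 32, and all 24 libraries 100 lower. The replicate block gave 1189 and 1279, the GC correction 1112 and 1320, and both together 1185 and 1384. Leaving out 1 library gave 378 to 907 higher, 498 to 947 lower, and 11 to 28 and 66 to 77 past those thresholds. Higher genes made up 46.6% of the calls, and 34.8% with library size only. The interaction count was 972 with DESeq2, 4 with library size only, 1597 with no filter, 1782 with all 24 libraries, 1889 with the replicate block, 192 with the GC correction, 390 with that correction and the block, and 0 to 3034 without 1 library; the 0 is edgeR's, with 2292 to 2797 genes at an unadjusted p under 0.05. The share of more positive values was 80.7%, but 0% with library size only, 47.4% with the GC correction and 66.9% with the length correction. Libraries with the same replicate number had residual correlations of 0.36, -0.166 and -0.113 across genes, so the number was not used to pair libraries. The cause of these shifts was not tested. With 3321988 to 4082506 reads on genes a library, differences in genes of few counts may not be detectable.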
